A study of Mus musculus with 28 samples.

Results

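The genes described here encode 10 subunits of the AMPA and NMDA classes of ionotropic glutamate receptor: Gria1, Gria2, Gria3, Gria4, Grin1, Grin2a, Grin2b, Grin2c, Grin2d and Grin3a. They were chosen by symbol, each had a row in the count table, and they are 10 of the 25900 gene identifiers it holds. The study sequenced polyA RNA from the frontal cortex of 28 C57BL/6 mice aged 20 months. A Q331K substitution in TDP-43, the RNA-binding protein encoded by Tardbp, had been knocked in. The 8 wild-type mice (+/+, WT) carried 0 mutant alleles, the 10 heterozygous mice (Q331K/+, HET) carried 1, and the 10 homozygous mice (Q331K/Q331K, HOM) carried 2. Age, strain background, tissue and library protocol were shared by all groups, and the labels name no treatment, sex, litter or batch. Each library is whole tissue, so less RNA per cell and fewer cells of a type cannot be told apart.

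AMPA and NMDA receptors are tetrameric cation channels opened by glutamate, and they carry most fast excitatory transmission in the cortex. AMPA receptors are built from the products of Gria1 to Gria4 (GluA1 to GluA4), open and close quickly and set the size of the synaptic current. NMDA receptors pair the obligatory GluN1 subunit, encoded by Grin1, with GluN2 or GluN3 subunits. They need a co-agonist as well as glutamate, are blocked by magnesium at rest and admit calcium, and they are known for their part in synaptic plasticity. TDP-43 binds many long neuronal RNAs and acts in their splicing and stability.

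The 4 AMPA subunit genes share a conserved coding stretch for the loop that lines the pore. It is printed here because the genes are alike there at most bases, and because the site decides whether a receptor containing GluA2 admits calcium. In Gria2 RNA the enzyme ADAR2 edits the glutamine codon of this site so that arginine is read, the Q/R site. The sequences are genomic, from GENCODE vM21 transcripts (GRCm38), 30 bases each, 5′ to 3′, with the codon at the Q/R position in capitals.
Gria1: gccttcatgCAGcaaggatgtgacatttcc
Gria2: gcctttatgCAGcaaggatgcgatatttcg
Gria3: gcttttatgCAGcaaggatgtgatatttct
Gria4: gcctttatgCAAcaaggatgtgacatttca
Against Gria2, 26 of the 30 bases were identical in Gria1, 27 in Gria3 and 26 in Gria4. The stretch covers bases 2261 to 2290 of a Gria2 transcript of 10371 bases. Gria4 uses the other glutamine codon. Counts per gene do not show editing at this site, which was not analysed here. The 4 stretches differ from each other, and whether any reads were placed on more than 1 member was not tested. The sources used here do not give how the authors' counting treated such reads.

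The libraries held between 30.5 M and 74.9 M counted reads (median 53.5 M), and HOM 2 and HOM 1 were the shallowest. The biological coefficient of variation over all genes tested was 8.46%. On the first principal component, which held 13% of the variance, WT 6 and HOM 3 stood at opposite ends. Tardbp itself was 321 ± 13.6 CPM (counts scaled to library size; SD, n = 8) in WT, 328 ± 13.3 (n = 10) in HET and 349 ± 18.9 (n = 10) in HOM, a log2 difference between HOM and WT of 0.12 (SE 0.031, adjusted p = 0.0185). A count per gene does not show the substitution and so does not check the genotype. Excitatory neuron markers were present in every library, with Slc17a7, the cortical vesicular glutamate transporter, between 1098 and 1292 CPM.

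In WT cortex the AMPA subunit genes and Grin1 were the most abundant of the 10, and the GluN2 and GluN3 genes other than Grin2c were the least. To compare genes, CPM was divided by the length of the annotated exons that lie within each gene's deposited span, which gives CPM per kb. On that scale Gria2, on chromosome 3 (80684936 to 80802791, minus strand), had the highest WT level, 68.7 ± 2.90 CPM per kb. Gria1, on chromosome 11 (57011387 to 57330244, plus strand), followed at 55.6 ± 1.495. Gria3, on the X chromosome (41400854 to 41678601, plus strand), stood at 36.3 ± 1.23. Gria4, on chromosome 9 (4417899 to 4796234, minus strand), was the lowest of the AMPA genes at 21.9 ± 0.827. Grin1, on chromosome 2 (25291181 to 25319187, minus strand), encodes the subunit that every NMDA receptor contains and reached 54.2 ± 2.08. All coordinates are GRCm38 gene spans from the count table, introns included.

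Among the genes for the glutamate-binding GluN2 subunits, Grin2c had the highest level on this scale and Grin2d the lowest. Annotated 3′ exon bases of both Grin2a and Grin2b lie outside the deposited spans, so their place in this order is uncertain. Grin2c, on chromosome 11 (115249169 to 115267243, minus strand), stood at 11.6 ± 0.973 CPM per kb in WT. Its product gives NMDA receptors a weak magnesium block, and its RNA is known from cerebellar granule cells and, in the cortex, from astrocytes. Grin2b, on chromosome 6 (135729826 to 136173511, minus strand), encodes the GluN2B subunit that dominates in the young forebrain and stood at 4.29 ± 0.404. Grin2a, on chromosome 16 (9577710 to 9994921, minus strand), encodes GluN2A, which joins synaptic receptors as the forebrain matures, and stood at 2.45 ± 0.253. Grin2d, on chromosome 7 (45831883 to 45870928, minus strand), is known in adult cortex from interneurons and stood at 1.94 ± 0.164. Grin3a, on chromosome 4 (49661611 to 49845744, minus strand), encodes a glycine-binding subunit that lowers calcium entry and stood at 3.17 ± 0.139.

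**Figure D1:**
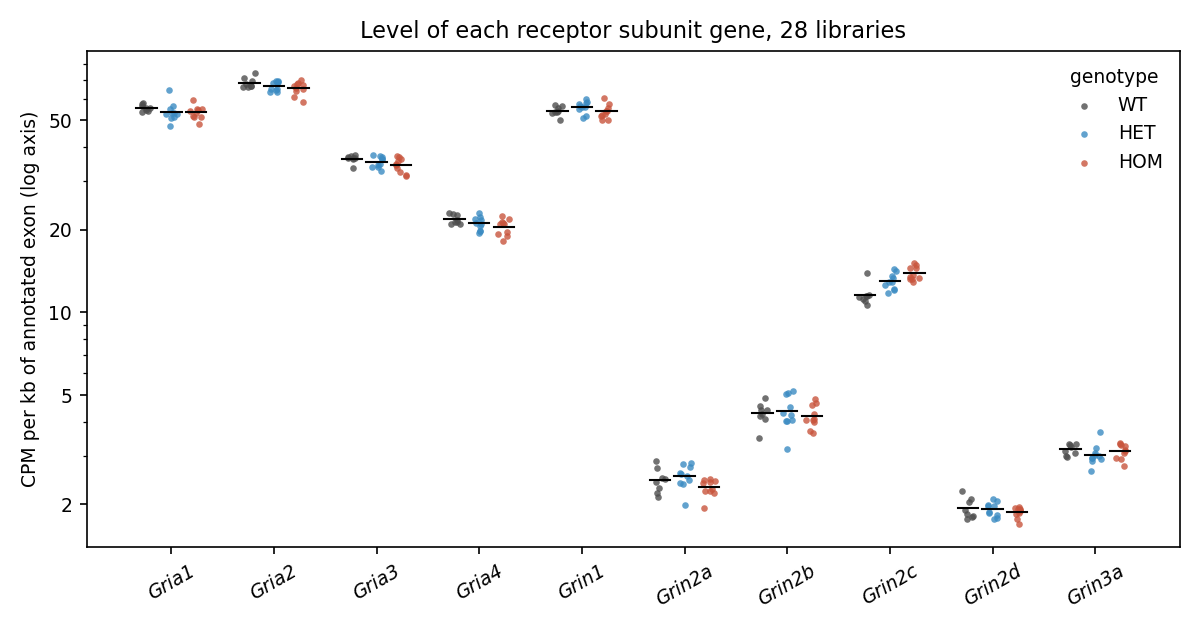
Level of each subunit gene in CPM per kb of annotated exon (vertical log axis), with 1 point per library, coloured by genotype (8 WT, 10 HET, 10 HOM), and a bar at each group mean. Gria2, Gria1 and Grin1 lie highest and Grin2d lowest, and the genotypes of a gene lie close together compared with the distances between most genes.

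Most neighbours in this order were separated in every library. Gria1 and Grin1 were not: Gria1 was the higher in 15 of the 28 libraries and their WT ranges overlapped. The WT ranges of Grin2a and Grin2d overlapped too, although Grin2a was the higher in 28 of 28 libraries. Grin3a exceeded Grin2a in 27 of 28 libraries. The longest transcript length inside the deposited span was also used in place of the merged exons. Grin1 then ranked 1 at 123.0 CPM per kb and Gria2 ranked 2 at 120.7, so the order at the top depends on the length used. Grin3b, the remaining NMDA subunit gene, averaged 0.102 CPM over all libraries and did not pass the filter on low counts.

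The gene spans in the count table leave out part of the exons that GENCODE vM21 gives some members, which bears on the levels per kb. For Grin2a the annotated 3′ end lies 9812 bases beyond the deposited span, for Grin2b 16593 bases and for Gria2 3486 bases, while the 5′ end of Grin2d lies 7450 bases outside. Of 17.9 kb of merged Grin2a exon, 7.48 kb fall inside the span, and of 24.8 kb of Grin2b exon, 8.25 kb do. Reads from the missing stretches would not be in these counts if counting followed the deposited spans. The lengths used here are those inside the spans. Dividing by them does not make up for reads that fall outside the spans. A comparison of levels among Grin2 genes rests on the length chosen and on the spans. A comparison of 1 gene between genotypes does not use the length. Exons on the opposite strand overlap Grin1 (Grin1os), Grin2b (Gm14329, Gm26653 and Gm22892), Grin2c (the miRNA gene Gm25837) and Grin2d (Gm45441). Whether the counting used strand is not given in the sources used here, and reads of such overlaps cannot be told apart.

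With 2 mutant alleles against none, Grin2c rose and no other member passed the test. Grin2c lay at 53.8, 55.4, 56.2, 57.5, 57.6, 57.9, 58.1 and 69.9 CPM in the WT libraries, with WT 4 the high value. In HET it ran from 59.2 to 72.2 CPM (median 65.0), and in HOM from 65.2 to 76.4 CPM (median 68.5). All 10 HOM libraries and all 10 HET libraries exceeded 7 of the 8 WT libraries, and 4 HOM and 2 HET libraries exceeded WT 4. The HOM mean was 70.1 ± 4.07 CPM (SD, n = 10) against 58.3 ± 4.90 (n = 8) in WT. The fold was 1.20, a log2 difference of 0.27 (SE 0.045, 95% interval 0.17 to 0.36, edgeR quasi-likelihood test with Benjamini-Hochberg adjusted p = 0.000714). Of the 16110 genes tested, 1226 (7.61%) passed in this comparison, 629 higher (3.9%) and 597 lower (3.71%). The count of 1 member of 10 is near that background. The p-values weigh a difference against the spread between these mice, estimated in 1 fit of all 28 libraries. The labels list the mice as separate samples.

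Grin2c spans 18.1 kb, close to the median of 17.4 kb for protein-coding genes, and its longest intron is 4.04 kb. The members that were not called, apart from Grin1 (28.01 kb) and Grin2d (39.1 kb), span from 118 kb (Gria2) to 444 kb (Grin2b). The Grin2c promoter window in RefSeq (250 bases before to 50 after the start, GRCm38.p6) holds 70% G and C, against a median of 52.7% over 32851 promoter windows. It holds 3 matches to the GC box GGGCGG, searched on both strands, of which 2 overlap, and no TATAAA. At least 1 GC box is found in 35.7% of all windows and TATAAA in 13.6%. The stretch that holds the matches, chr11:115267270-115267296 on the minus strand, is shown because Grin2c is the called member, with the matches in capitals.
Grin2c: ctgGGGCGGgccgGGGCGGGGCGGagg
Of the members, 5 had a window in the table (Gria2, Gria4, Grin1, Grin2c and Grin2d), and apart from Grin2c a GC box occurred in Grin1 alone. The windows of the members not called were also above the median in G and C: 65.7% for Gria2, 60.7% for Grin1, 59.7% for Gria4 and 56% for Grin2d. A match is a description of the letters and not evidence of binding.

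Markers of astrocytes and of several other non-neuronal cell types moved in the same direction as Grin2c. All 6 astrocyte markers had positive differences (0.094 to 0.36, median 0.16), and 2 of them rose, beside 3.9% of all genes tested. Gja1, the astrocyte gap junction protein connexin 43, went from 181 ± 8.37 CPM in WT to 209 ± 12.2 in HOM (log2 difference 0.21, adjusted p = 0.000455). Aqp4, the astrocyte water channel, went from 112 ± 10.4 to 135 ± 17.6 CPM (0.28, adjusted p = 0.00638). The summed level of the 6 ran from 1940 to 2251 CPM in WT, from 2012 to 2367 in HET and from 2154 to 2558 in HOM, and none was at 0. Of the other lists, 4 of 5 oligodendrocyte precursor markers rose (median 0.21), with a summed level from 348 to 399 CPM in WT and from 377 to 442 in HOM. Among microglia markers 4 of 6 rose (median 0.19), with sums from 271 to 329 CPM in WT and from 320.1 to 389 in HOM. In the endothelial and mural list (median 0.16) and the meningeal fibroblast list (median 0.50), 2 of 6 rose in each, with WT sums of 261 to 288 and 32.4 to 52.4 CPM and HOM sums of 274 to 328 and 39.1 to 103.5 CPM. No marker of these lists was at 0 in any library. None of the 6 markers of mature oligodendrocytes passed, and their median was negative (-0.0771, range -0.138 to 0.0155). The part of any of these lists in the Grin2c difference was not tested. Among 5 markers of cerebellar granule cells, which also express Grin2c, none of the 4 tested passed. Their differences ran from -0.476 (Cbln3) to 0.24, with a median of 0.0775. The summed level of the 5 averaged 28.18 CPM in WT and 30.59 in HOM. Cbln3 averaged 0.642 CPM in WT and 0.466 in HOM, and Gabra6 was at or near 0 in every library (at most 0.247 CPM).

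The 4 AMPA subunit genes were all slightly lower in HOM than in WT, and none passed the test. Gria2, the subunit that sets calcium permeability, ran from 793 to 892 CPM in WT (median 812), from 761 to 839 in HET (median 803) and from 704 to 841 in HOM (median 793). Of the HOM libraries, 5 were lower than any WT library and 5 fell within the WT range. The log2 difference was -0.071 (SE 0.031, 95% interval -0.13 to -0.007, adjusted p = 0.159). Gria4, known in the cortex from fast-spiking interneurons among other cells, ran from 132 to 145 CPM in WT (median 136), from 123 to 145 in HET (median 133) and from 115 to 141 in HOM (median 132). Its 6 lowest HOM libraries lay below every WT library. The difference was -0.095 (SE 0.037, interval -0.17 to -0.020, adjusted p = 0.109).

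Gria3 ran from 330 to 370 CPM in WT (median 360), from 322 to 370 in HET (median 349) and from 309 to 366 in HOM (median 340), and the groups overlapped widely. Its difference was -0.078 (SE 0.034, interval -0.15 to -0.009, adjusted p = 0.148). Gria1, which encodes the subunit known for activity-dependent delivery to synapses, ran from 324 to 349 CPM in WT (median 336), from 289 to 390.2 in HET (median 320.3) and from 293 to 359 in HOM (median 324). The spread was wider in HET (SD 26.7 CPM) and HOM (17.7) than in WT (9.03). The HET spread includes the far value of HET 9, 390.2 CPM, with the next HET library at 340.3. The Gria1 difference was -0.055 (SE 0.039, interval -0.14 to 0.025, adjusted p = 0.398). Without adjustment 3 of the 4 had p under 0.05 (0.0318 for Gria2, 0.0275 for Gria3 and 0.0155 for Gria4), as did 3962 of all 16110 genes tested (24.6%). The median difference of the 4 was -0.074, against 0.0050 over all genes tested, of which 47.7% were negative.

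Beside these values stand those of parvalbumin interneurons, a cell type rich in Gria4. Of its 7 markers, 3 fell in HOM, Pvalb and Kcns3 among them, beside 3.71% of all genes tested. The differences of the 7 ran from -0.298 to 0.0855, with a median of -0.24. Pvalb, the calcium buffer of fast-spiking cells, went from 70.7 ± 7.08 to 58.1 ± 6.64 CPM. The summed level of the 7 ran from 388 to 482 CPM in WT, from 376 to 459 in HET and from 345 to 418 in HOM, with no marker at 0. Of 9 markers of other interneurons, 2 rose and 1 fell, with a median of -0.0506, beside 3.9% higher and 3.71% lower over all genes tested. The marker that fell was Gad1 (-0.23, adjusted p = 0.000623), while Gad2 did not pass (-0.125, adjusted p = 0.0935). None of the 9 excitatory neuron markers passed, and their median was -0.031. The part of any of these lists in the AMPA subunit values was not tested.

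**Figure D2:**
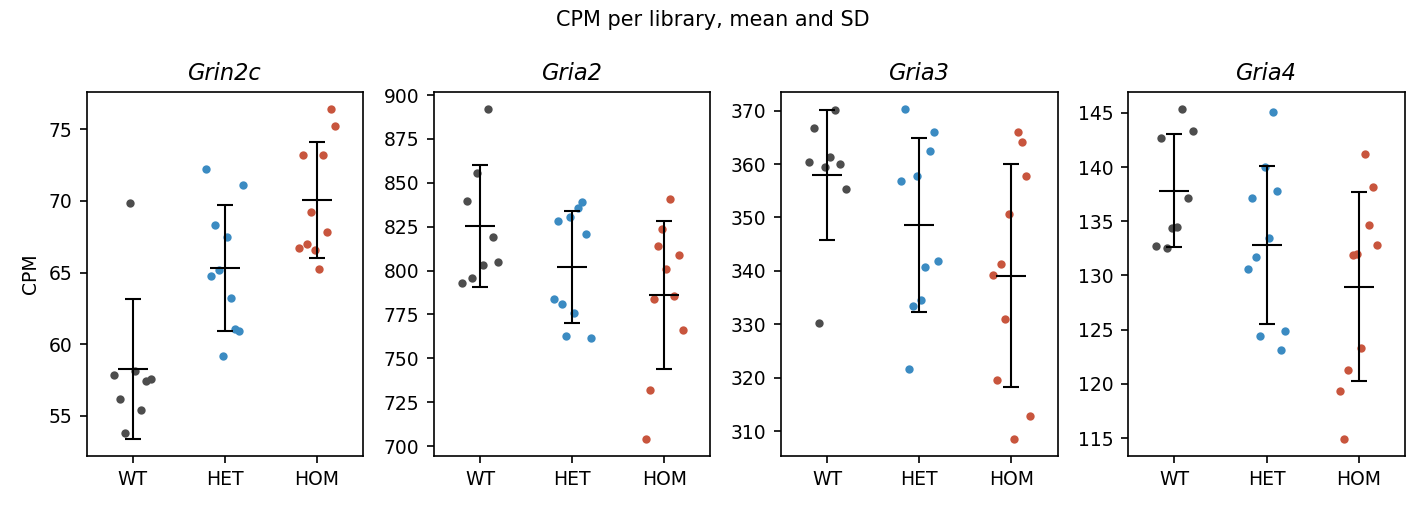
CPM of Grin2c, Gria2, Gria3 and Gria4 in each library (points; vertical axes differ and do not start at 0) by genotype, with the mean and SD of the 8 WT, 10 HET and 10 HOM libraries in black. Grin2c lies higher in HOM than in 7 of 8 WT libraries, while the genotypes overlap for the 3 AMPA genes.

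The NMDA subunit genes other than Grin2c did not pass the test in HOM against WT, and their intervals span 0. Grin1 ran from 487 to 550.4 CPM in WT (median 524), from 497 to 582 in HET (median 545) and from 486 to 587 in HOM (median 518), a difference of -0.008 (SE 0.034, interval -0.078 to 0.061, adjusted p = 0.911). The Grin1 interval thus reaches a change of at most 0.078 downward. Its sign turned positive under 2 of 9 alternatives. Grin2a ran from 15.9 to 21.5 CPM in WT (median 18.3), from 14.9 to 21.2 in HET (median 19.2) and from 14.4 to 18.5 in HOM (median 17.4), a difference of -0.087 (SE 0.061, interval -0.21 to 0.037, adjusted p = 0.391). Grin2b ran from 28.8 to 40.3 CPM in WT (median 35.7), from 26.2 to 42.5 in HET (median 35.2) and from 30.01 to 39.9 in HOM (median 33.6). All 10 HOM values of Grin2b lay within the WT range, and the difference was -0.031 (SE 0.075, interval -0.19 to 0.12, adjusted p = 0.841), the widest interval of the 10 members.

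Grin2d ran from 11.2 to 14.03 CPM in WT (median 11.8), from 11.2 to 13.1 in HET (median 12.1) and from 10.7 to 12.3 in HOM (median 11.9), a difference of -0.047 (SE 0.044, adjusted p = 0.539). Grin3a ran from 36.5 to 40.7 CPM in WT (median 39.2), from 32.4 to 45.1 in HET (median 36.5) and from 33.8 to 41.1 in HOM (median 38.6), a difference of -0.020 (SE 0.045, adjusted p = 0.827). For both genes the groups overlapped. The 6 NMDA genes had a median difference of -0.026, and over all 10 members it was -0.051, with 9 of 10 negative.

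**Figure D3:**
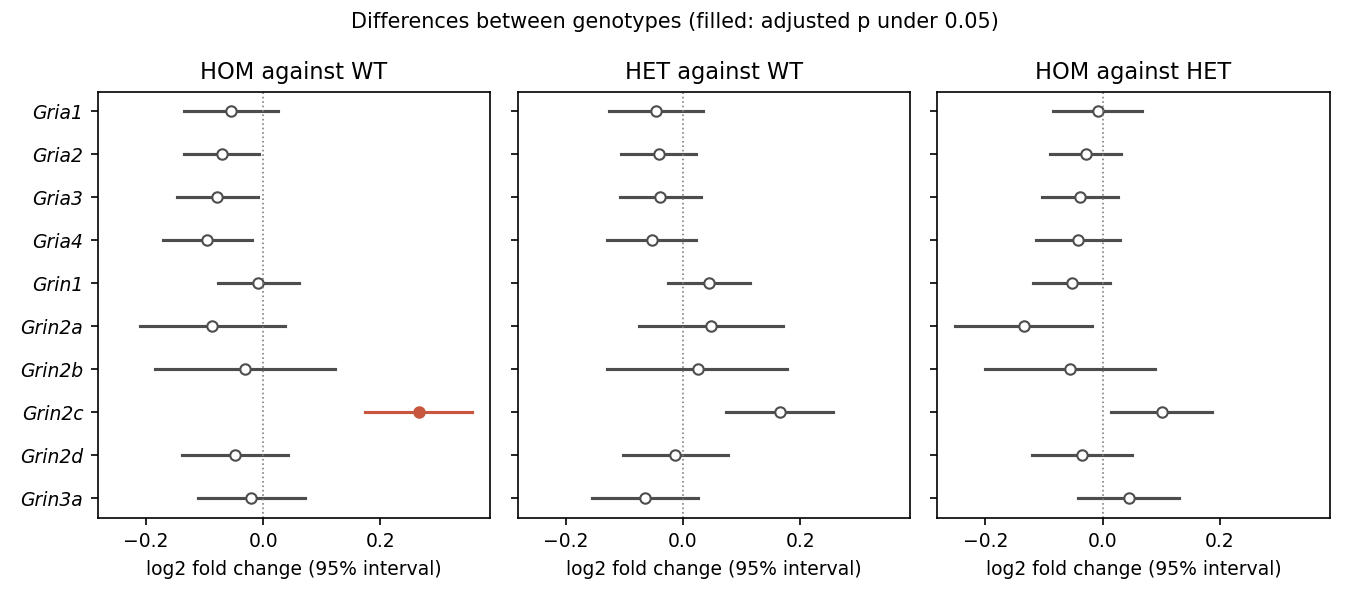
Log2 fold change of each member (horizontal axis, points) with its 95% interval (lines) in HOM against WT, HET against WT and HOM against HET, filled where the adjusted p was under 0.05. Grin2c in HOM against WT, at 0.27, is the filled point, and the 4 AMPA genes lie left of 0 in all 3 panels.

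With 1 mutant allele, none of the 10 members passed the test against WT, and none of the 16110 genes did (0%) by edgeR. Without adjustment 1547 genes (9.6%) had p under 0.05, and DESeq2 called 12 and limma voom 14. Grin2c had the smallest p of the members (65.4 ± 4.40 CPM in HET against 58.3 ± 4.90 in WT, log2 difference 0.17, SE 0.045, interval 0.074 to 0.26, unadjusted p = 0.000847, adjusted p = 0.343). The 4 AMPA genes had differences between -0.053 (Gria4) and -0.038 (Gria3), with a median of -0.044. Grin1 (0.045), Grin2a (0.048) and Grin2b (0.025) had positive values, and Grin3a (-0.065) and Grin2d (-0.013) negative ones. The HET and HOM comparisons share the WT libraries, so their values are not independent of each other.

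Between HOM and HET, none of the 10 members passed, against 6 genes of all tested (0.0372%), 2 higher (0.0124%) and 4 lower (0.0248%). Without adjustment Grin2a (-0.13, SE 0.057, p = 0.0251, adjusted p = 0.515) and Grin2c (0.10, SE 0.042, p = 0.0229, adjusted p = 0.502) had p under 0.05, as did 1375 of all genes tested (8.54%). Grin2a lay at 19.0 ± 1.88 CPM in HET and 17.2 ± 1.24 in HOM, and its HOM against WT value was -0.087. The median over the members was -0.037.

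A slope on the number of mutant alleles (0, 1 or 2) was fitted to all 28 libraries. Grin2c passed and was the called member, with 0.13 per allele (SE 0.022, interval 0.086 to 0.18, adjusted p = 0.000618), while 1254 of the genes tested (7.78%) passed, 3.99% upward and 3.79% downward. Its group means rose in steps from 58.3 to 65.4 to 70.1 CPM. The AMPA slopes were -0.048 for Gria4 (adjusted p = 0.101), -0.039 for Gria3 (0.138), -0.035 for Gria2 (0.152) and -0.027 for Gria1 (0.404). The slopes of Grin1, Grin2a, Grin2b, Grin2d and Grin3a lay between -0.047 and -0.006 and did not pass.

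The make-up of the AMPA family was close to equal in the 3 genotypes. Gria2 held 37.6% ± 0.937 of the summed level per kb of the 4 genes in WT (n = 8), 37.7% ± 1.01 in HET and 37.6% ± 1.21 in HOM (n = 10 each). The WT shares of Gria1, Gria3 and Gria4 were 30.5%, 19.9% and 11.99%, and in HOM they were 30.8%, 19.8% and 11.8%. The summed level was 182 ± 4.24 CPM per kb in WT, 177 ± 7.05 in HET and 174 ± 7.29 in HOM.

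Within the Grin2 family the share of Grin2c was larger in HOM. It held 57.1% ± 2.80 of the summed level per kb in WT (54.2 to 62.5%), 59.6% ± 2.65 in HET (54.8 to 65.5%) and 62.4% ± 2.14 in HOM (59.0 to 66.7%), and the ranges overlapped. The shares of the others were smaller in HOM than in WT: 10.4% against 12.1% for Grin2a, 18.8% against 21.2% for Grin2b and 8.42% against 9.58% for Grin2d. The shares are parts of the same sum, so a rise of Grin2c makes the others smaller even without a fall in their counts. The log2 ratio of Grin2a to Grin2b, often read as a sign of receptor maturity, was -0.81 ± 0.078 in WT, -0.78 ± 0.11 in HET and -0.86 ± 0.087 in HOM, differences within the spread. The size of these shares, and of their differences between genotypes, rests on the exon lengths. It also rests on the deposited spans, which leave out annotated 3′ exon bases of Grin2a and Grin2b. The level of the Grin2a to Grin2b ratio rests on both too. Shares and ratio are descriptions and were not tested.

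Several genes for proteins that assemble with AMPA receptors passed the test. Of 20 auxiliary and assembly genes, all tested, 3 rose and 1 fell in HOM against WT, with a median of 0.089. Over all genes tested, 3.9% passed as higher and 3.71% as lower. Shisa6, which encodes an auxiliary subunit that keeps AMPA receptors from desensitizing, lay between 12.2 and 15.6 CPM in WT and between 15.1 and 22.4 in HOM, with 9 of 10 HOM libraries above every WT library. Its log2 difference was 0.42 (SE 0.093, adjusted p = 0.00648), and HET lay between, at 16.9 ± 2.97 CPM. Frrs1l, an endoplasmic reticulum protein needed for AMPA receptor assembly, fell from 400 ± 16.2 to 366 ± 18.7 CPM, with 7 of 10 HOM libraries below every WT library (-0.13, SE 0.032, adjusted p = 0.0156).

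Gsg1l, an auxiliary subunit that dampens the AMPA current, rose from 110 ± 4.77 to 122 ± 8.73 CPM (0.15, SE 0.044, adjusted p = 0.0357). Cnih2, a cornichon protein that aids export and slows deactivation, rose from 92.2 ± 4.38 to 102 ± 9.68 CPM (0.14, SE 0.046, adjusted p = 0.0485). The call of Cnih2 was lost under 7 of 9 alternatives and that of Gsg1l under 3 of 9, with adjusted p up to 0.128 and 0.0941. With 1 library left out, Cnih2 was not called in 21 of 28 cases, and Gsg1l in 7 (WT 1, WT 2, WT 3, WT 6, HOM 1, HOM 2 and HOM 9; adjusted p at most 0.0904). The transmembrane AMPA regulatory proteins Cacng2, Cacng3, Cacng4, Cacng5, Cacng7 and Cacng8, named here after their values were seen, lay between -0.048 and 0.12, and none passed.

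The other partner lists gave 1 call. None of 25 postsynaptic scaffold and trafficking genes passed (median 0.0073). The smallest p there belonged to Dlgap1 and Dlgap2, scaffold proteins that bind PSD-95, at -0.078 (adjusted p = 0.0905) and -0.081 (adjusted p = 0.102). Dlgap1 passed by limma voom (0.0384) and without WT 3 (0.0455) or HOM 7 (0.0427). Of 17 tested genes of NMDA co-agonist supply and signalling, Rasgrf1 fell. It encodes a calcium-activated exchange factor that links NMDA receptors to Ras and went from 367 ± 25.2 to 334 ± 19.6 CPM, with all 10 HOM libraries below the WT mean and 2 below every WT library (-0.14, SE 0.039, adjusted p = 0.0298). Without WT 6 and HOM 3 its adjusted p was 0.0835, and leaving out WT 1, WT 2 or WT 6 alone gave 0.0669, 0.0528 and 0.0697. The median of that list was 0.016, and Dao was not tested.

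None of 10 tested genes passed in the list of kainate and delta receptors, which also holds Neto subunits and Grina. Among them were Grik2 (-0.089, adjusted p = 0.212), a kainate receptor subunit, and Neto1 (-0.093, adjusted p = 0.270), an auxiliary subunit. None of the 3 ADAR genes passed. Adarb1, which encodes the ADAR2 enzyme that edits the Gria2 site and is named here after its value was seen, had a difference of 0.034 (SE 0.031, adjusted p = 0.515). Adarb2, a relative without known editing activity, had -0.089 (adjusted p = 0.304), and Adar -0.035 (adjusted p = 0.491). Of 7 glutamate transporters none passed. Slc1a3, the astrocyte uptake carrier GLAST, had 0.11 (adjusted p = 0.118), and Slc17a6, a vesicular transporter, 0.23 (adjusted p = 0.137). In all, 5 of 82 partner genes tested passed in HOM against WT, 3 higher and 2 lower, beside the background of 7.61%. In HET against WT and in HOM against HET none of the 82 did, beside backgrounds of 0% and 0.0372%.

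**Figure D4:**
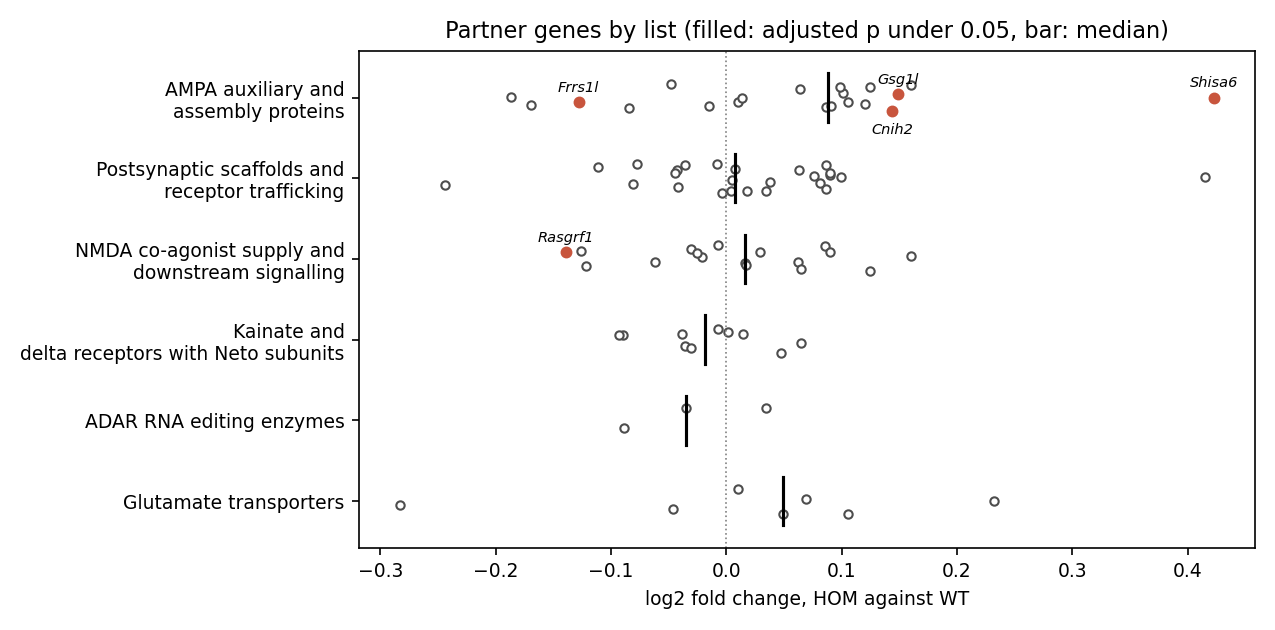
Log2 fold change in HOM against WT (horizontal axis) of 82 partner genes, with 1 point per gene in rows by list, filled where the adjusted p was under 0.05, and a black bar at each list's median. The filled points are Shisa6, Gsg1l, Cnih2 and Frrs1l among the AMPA auxiliary genes and Rasgrf1 among the NMDA signalling genes.

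Members were also compared by how they varied from library to library after the genotype means were removed, over 28 libraries. In each library all genes share its depth, its tissue piece and its preparation, which differ between libraries. These correlations of log2 CPM (Pearson's r) are descriptions across 12739 candidate genes, with no p. Grin2a and Grin2b were each other's closest member (r = 0.834, Spearman's rho = 0.737), and Grin2b was the most alike of all candidates to Grin2a. With the 2 libraries farthest from the median of Grin2a left out, r was 0.745. Gria2 and Gria4 were closest to each other among the members (r = 0.697), as were Gria1 and Grin3a (0.697, or 0.474 without the 2 farthest libraries of Gria1). Grin2c stood apart from the rest: its closest member was Grin2b, at r = 0.0947. Over all 45 pairs of members r ran from -0.357 to 0.834 with a median of 0.111, and 30 pairs were positive.

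Outside the family, the gene most alike to Gria1 was Matn2 (r = 0.876), which encodes a matrix protein, and to Gria2 it was Atrx (0.866), a chromatin remodeller. Gria3 was most alike to Gabra3 (0.834), a GABA-A receptor subunit gene, and Gria4 to Fam63b (0.801). Grin1 varied most like Atp13a2 (0.876), a lysosomal transporter gene, and Napa (0.873), a membrane fusion gene. Grin2b was most alike to Tnr (0.873), which encodes the matrix protein tenascin-R, and Grin2c to Rasa4 (0.766) and Tmcc2 (0.743). The highest values for Grin2d and Grin3a were those of Alox8 (0.787) and Slc44a5 (0.778).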

How the data were processed

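RNA had been extracted from snap-frozen cortex and made into stranded mRNA libraries with shortened fragmentation, per the labels' protocols. Reads were trimmed with Trim Galore 0.4.3 and aligned with HISAT2 2.0.5, with GRCm38 as the build, per the submitters' processing notes. How reads were counted per gene (tool, strand, annotation release) is not given in the sources used here. What the authors deposited are whole, unnormalized read counts per gene.

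The 25965 rows were summed to 25900 identifiers (57 filled several rows). After filterByExpr, 16110 genes were scaled by TMM and tested with edgeR 4.0.16 (R 4.3.3; robust quasi-likelihood, two-sided) in 1 fit of 28 libraries, with a mean per genotype, and in a second with a slope. Benjamini-Hochberg adjustment ran over all genes tested (threshold 0.05). The method was tested on simulated data, whose changes were larger than those seen for the members. Exon lengths came from GENCODE vM21. DESeq2 1.42.0, limma 3.58.1, other scalings, filters and sample sets were alternatives.

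Groups come from the genotype labels. Replicate numbers did not pair libraries. Libraries differed by more than sampling noise in every pair (lowest chi-square per degree of freedom 6.73). Named are all members, called partner genes, otherwise at most the 2 of a list with the smallest p, the 2 most alike genes of each member, and the first 2 of each marker list. For some members the closest alone is printed. Shisa8, Syndig1, Frrs1l and Drd1 have older symbols in the table and were matched by identifier. Members and lists were chosen with earlier results of these data known.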

Additional observations from a re-analysis of the deposited data

Results flagged for a closer look

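In a search for single libraries far from the rest of their group, 8 values were found among 72 groups of 8 or 10 libraries, where chance marks about 1 in 20. WT 4 had 69.9 CPM of Grin2c, with the next WT library at 58.1, and without WT 4 the HOM against WT difference of Grin2c was 0.30 in place of 0.27. HET 9 had 390.2 CPM of Gria1, with the next HET library at 340.3, and without it the HOM against HET difference of Gria1 was 0.023 in place of -0.009. WT 3 had 330.2 CPM of Gria3, below the next at 355. HOM 10 had 14.4 CPM of Grin2a, below the next at 16.5. Among WT libraries Drd1, a marker of striatal neurons, was highest in WT 3 and WT 4 (36.4 and 31.0 CPM, median 14.4). So was Drd2 (14.4 and 8.48 CPM, median 2.39). None of the 8 striatal markers passed. Their differences ran from -1.07 to -0.184 in HET against WT and from 0.252 to 1.17 in HOM against HET. In HOM against WT they ran from -0.059 to 0.191. Their part in any member's values was not tested.

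Among other genes, HET 10 had 358 CPM of Tardbp (next 336) and HET 4 had 819 CPM of the astrocyte carrier gene Slc1a3 (next 749.7). WT 6 had 99.6 CPM of Gsg1l (next 108), and HOM 1 had 247 CPM of Adar (next 219.5). WT 6 is also an end of the first principal component, and HOM 1 is among the shallowest libraries. Causes were not tested.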

How the results depend on the processing

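Grin2c was called in HOM against WT under all 9 alternatives (log2 0.25 to 0.27, adjusted p 4.27e-06 to 0.00437) and with each library left out in turn (0.24 to 0.30, adjusted p at most 0.00253). The count of members called was 1 in each of those 9. For the slope, leaving out 1 library gave 1 to 2 members called, the second being Gria4 without HOM 7. The number of genes called in HOM against WT, 1226, was 737 with a replicate block, 509 without WT 6 and HOM 3, and 595 (without WT 6) to 1345 with 1 library left out. It was 725 without WT 2. With the replicate block 1 member was called, and of the partner genes Rasgrf1 (adjusted p = 0.0526), Gsg1l (0.0818) and Cnih2 (0.0594) were not. Leaving out WT 6 and HOM 3, or HOM 1 and HOM 2, was chosen after seeing the data.

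Small differences turned direction. Gria1 in HOM against HET was 0.0145 by limma voom and -0.0293 to 0.0234 with 1 library left out. Gria2 in HOM against HET was 0.00166, and Grin3a in HOM against WT 0.00241, without HOM 1 and HOM 2. Grin1 in HOM against WT was 0.00181 with the replicate block, 0.00927 without WT 6 and HOM 3, and -0.0303 to 0.00122 with 1 library left out. Grin2b in HET against WT was -0.00447 with the block and -0.0157 to 0.0678 with 1 left out, and Grin2d in HET against WT -0.0325 to 0.0175. The cause was not tested.

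The longest transcript length inside the deposited span was the alternative length. With it, WT shares of the AMPA level were 22% for Gria1, 43.8% for Gria2, 25.0% for Gria3 and 9.20% for Gria4. Of the Grin2 level they were 16.2% for Grin2a and 52.9% for Grin2c, with a log2 ratio of Grin2a to Grin2b of -0.38. Same-numbered libraries correlated between -0.164 and 0.183 (median 0.0108, 26 pairs), so the numbers are not taken as pairs.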
